A study of Mus musculus with 12 samples.

Results

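Cortex from vehicle-treated stroke mice (Veh) was compared with the cortex libraries labelled control, 4 libraries against 4, across every gene with enough reads in the deposited count table. The members were chosen by label alone: Veh 2, Veh 6, Veh 8 and Veh 10 and control 19, control 21, control 36 and control 38, which are 8 of the 12 libraries of the series, and 15126 of the 25238 genes in the table entered the test. The comparison asks which transcripts differ in cortex next to an infarct when the stroke was treated with vehicle only.

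The Veh mice had a transient occlusion of the left middle cerebral artery for 45 min and received 5% DMSO in saline subcutaneously each day from day 1 post-stroke, with tissue taken on day 14. The methods and labels give vehicle for these mice, whereas the results text of the study names a scrambled peptide. The methods give male C57BL/6J mice of 10 to 12 weeks for the stroke surgery and also use Nestin-CreERT2-Ai9 mice elsewhere, and do not say which strain was sequenced. Tissue was punched with a 1 mm tool from frozen sensorimotor and motor cortex near the infarct, so that each library mixes all cell types of the punch. For the control libraries the labels give only the word control and, like those of Veh, peri-infarct cortex as the tissue. No surgery, treatment, age or day is given for them alone. The protocol attached to every library speaks of occluded mice on vehicle or peptide, and the design text sets control mice against peptide-treated ones at day 14. These libraries are therefore called control here, and whether they came from mice with or without a stroke is not stated there. The methods give the Veh group as 4 mice, and nothing ties the control libraries to separate animals, so that the p-values measure the spread between these libraries.

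After ischemia the cortex around an infarct passes through weeks of glial reaction. Astrocytes enlarge and make more of their intermediate filament GFAP, microglia and macrophages take up debris through lysosomes, and complement, antigen presentation and interferon-stimulated genes are typical parts of that reaction. Neurons that survive can alter ion channels, receptors and the genes they switch on with firing.

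Total counts per library were 17442711 to 24706638 in Veh and 21322702 to 29845629 in control. The 12 pairs of libraries within a group had a chi-square per degree of freedom of 10.7 to 34.9 over genes, so that no pair agreed within sampling noise. Pairs between the groups had 9.43 (Veh 8 and control 38) to 46.45 (Veh 2 and control 21), so that the ranges overlapped. On the principal components of log2 CPM, the counts scaled by library size, PC1 took 28.1% of the variance. It had all 4 Veh libraries below 0 and all 4 control libraries above 0, with Veh 10 and Veh 2 lowest. Veh 8 (-4.03), Veh 6 (-5.63) and control 19 (3.57) lay nearest to 0 on PC1. The Y-linked genes Ddx3y (23.96 to 38.6 CPM in Veh and 33.9 to 41.5 CPM in control) and Kdm5d (11.1 to 14.2 CPM in Veh and 12.4 to 18.8 CPM in control) were present in all 8 libraries. Xist, made in female cells, was 0 to 0.569 CPM in Veh and 0.03402 to 0.169 CPM in control. The cortical markers Slc17a7 (2026 to 2639 CPM in Veh and 1985 to 2372 CPM in control), Tbr1 (140.5 to 188 CPM in Veh and 167 to 244 CPM in control) and Gad1 (309.5 to 338 CPM in Veh and 299.6 to 354 CPM in control) were expressed in every library. Choroid plexus RNA stood out in Veh 6 alone: Ttr, its transthyretin gene, had 38337 counts there and 18 or fewer in each of the other 7 libraries. In bulk tissue, fewer cells of a type and less RNA per cell cannot be told apart.

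Of the 15126 tested genes, 156 were higher in Veh (1.03%) and 181 lower (1.2%) by edgeR's quasi-likelihood test at an adjusted p under 0.1, or 2.23% in either direction. With a log2 fold change beyond 0.5 as well, 106 were higher (0.701%) and 56 lower (0.37%). The higher genes changed more than the lower ones, with a median log2 fold change of 0.66 against -0.43 and 52 against 11 genes beyond 1, beside a median of 0.02 over all tested genes. Every Veh library lay outside the range of the control libraries for 143 of the 156 higher and 176 of the 181 lower genes. Over all tested genes, 4.63% had every Veh library above and 4.98% every one below. The called genes were chosen from these same libraries, so that their separation is no further result. At an unadjusted p under 0.05, 1225 genes were higher (8.1%) and 1247 lower (8.24%).

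These counts rested on single libraries. Without control 21 no gene was called by edgeR, although 1863 had an unadjusted p under 0.05. Without Veh 2, 6 were higher and none lower, without control 36, 3 and 3, without control 38, 20 and 64, and without Veh 10, 47 and 64. Leaving out Veh 8 gave 151 higher and 48 lower, and leaving out Veh 6 or control 19 gave 188 and 214 or 167 and 294. All 337 called genes kept their direction and an unadjusted p under 0.05 in each of these 8 fits. They were called from libraries that these fits share, so that this is no independent check. The genes called in at least 5 of the 8 numbered 19 higher and 22 lower, and Gfap, Glul and Adgrg1 were called in 7, all but the fit without control 21. DESeq2's Wald test on the 8 libraries called 486 higher and 623 lower.

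**Figure D1:**
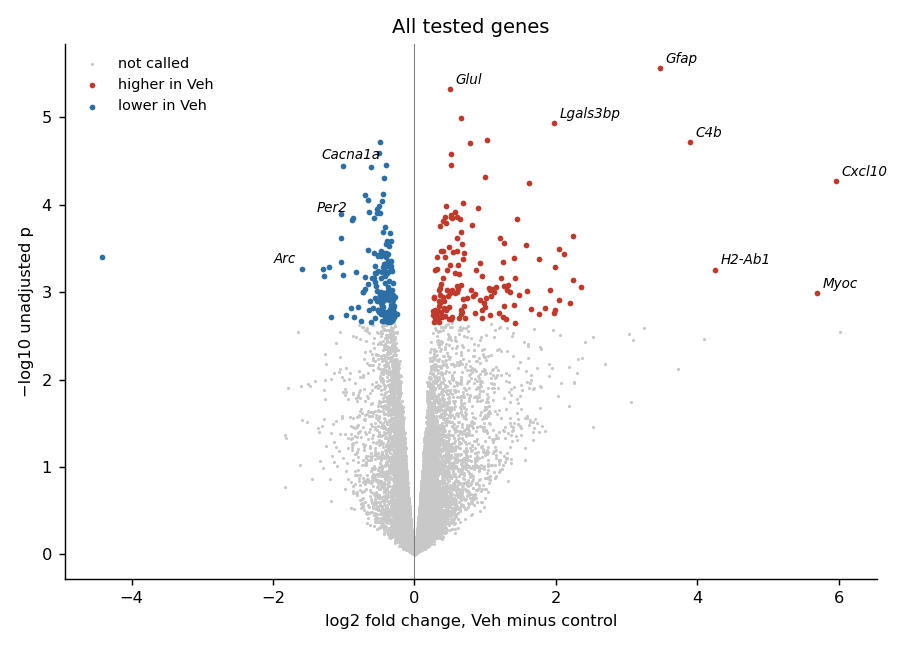
Each point is 1 of the 15126 tested genes, with the log2 fold change of Veh minus control on the x axis and the −log10 of edgeR's unadjusted p on the y axis. Red points are the 156 genes called higher and blue points the 181 called lower, with the higher ones reaching further from 0, as far as Myoc and Cxcl10.

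Astrocyte genes were among those with the smallest p. Of 19 tested genes of reactive astrocytes 5 were higher and none lower, all 19 had a positive log2 fold change, and their median was 0.54. Among the 5 was Cxcl10, which entered the test through its Veh reads alone, so that its direction was set by the filter. In the list of astrocyte homeostasis 3 of 20 were higher, 19 of 20 were positive and the median was 0.24. Positive values made up 54.3% of all tested genes.

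Gfap, the astrocyte intermediate filament gene (mm10 chr11:102887336-102900912), had the smallest p of all genes at 149, 309, 119 and 650.2 CPM in the Veh libraries and 24.7, 30.7, 24.4 and 30.7 CPM in the control libraries, given here and below in the order Veh 2, 6, 8, 10 and control 19, 21, 36, 38. The groups did not overlap, Veh 10 and Veh 6 were the highest, and the 4 control libraries were within a narrow band (log2 fold change 3.48, SE 0.44, adjusted p = 0.0357). Without Veh 10 the log2 fold change was 2.801. Vim, which encodes the partner filament vimentin, was 16.3 to 65.2 CPM in Veh and 11.2 to 15.7 CPM in control (log2 fold change 1.42, SE 0.321, adjusted p = 0.0774), again with Veh 10 highest. Cd44, a hyaluronan receptor that reactive astrocytes and leukocytes carry, was 1.86 to 5.26 CPM in Veh and 0.465 to 1.09 CPM in control (1.98, adjusted p = 0.0746), and Cd14, a coreceptor for bacterial lipopolysaccharide, was 2.44 to 4.93 CPM in Veh and 1.18 to 1.67 CPM in control (1.27, adjusted p = 0.0849). The other members included Serpina3n, a protease inhibitor, at 28.4 to 39.6 CPM in Veh and 21.6 to 28.6 CPM in control, which did not pass the test (0.39, adjusted p = 0.158). Lcn2, encoding lipocalin 2, had 4, 1, 7 and 45 counts in the Veh libraries and none in any control library, at least 21.96-fold higher against 3 counts over the control group, a bound for counting error only, with 45 of its 57 counts in Veh 10.

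Genes for the normal work of astrocytes had smaller differences. Glul, glutamine synthetase (mm10 chr1:153899944-153909723), was 2090, 1925, 1903 and 2209 CPM in the Veh libraries and 1490, 1415, 1439 and 1409 CPM in the control libraries. Every Veh library exceeded every control library, and the Veh libraries differed from each other by less than in Gfap (log2 fold change 0.50, SE 0.066, adjusted p = 0.0357). Kcnj10, the inward rectifier channel of astrocytes, was 255 to 338 CPM in Veh and 221 to 236 CPM in control (0.33, adjusted p = 0.0945), and Mlc1, a membrane protein of astrocyte endfeet, was 132 to 164 CPM in Veh and 102 to 121 CPM in control (0.36, adjusted p = 0.0849). The glutamate transporter genes Slc1a2 (0.08, adjusted p = 0.75) and Slc1a3 (0.29, adjusted p = 0.299) did not pass the test, nor did the water channel gene Aqp4 at 46.9 to 127 CPM in Veh and 46.7 to 53.8 CPM in control (0.60, adjusted p = 0.227), in which Veh 10 was highest. Clu, the secreted chaperone clusterin that astrocytes make in quantity, was 1013, 891, 817 and 1003 CPM in the Veh libraries and 702, 599, 628 and 676 CPM in the control libraries (log2 fold change 0.52, SE 0.084, adjusted p = 0.0395). Slc25a18, a mitochondrial glutamate carrier, was 87.5 to 154 CPM in Veh and 52.5 to 65.3 CPM in control (1.003, adjusted p = 0.0464). Adgrg1, the adhesion receptor GPR56, was 83.3, 68.7, 64.3 and 72.4 CPM in the Veh libraries and 48.5, 43.6, 48.6 and 42.9 CPM in the control libraries (log2 fold change 0.65, SE 0.093, adjusted p = 0.0373), with no overlap, and Abhd4, a lipid hydrolase, was 67.7 to 82.4 CPM in Veh and 48.7 to 53.3 CPM in control (0.52, adjusted p = 0.0395).

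Without Veh 2, Veh 10, control 21, control 36 or control 38, the called reactive astrocyte genes numbered 1, 3, 0, 1 and 2, and the called homeostasis genes 1, 1, 0, 1 and 1, with 1 also without Veh 8. The list of reactive astrocytes had a summed level of 273 to 919 CPM in Veh and 156 to 183 CPM in control.

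**Figure D2:**
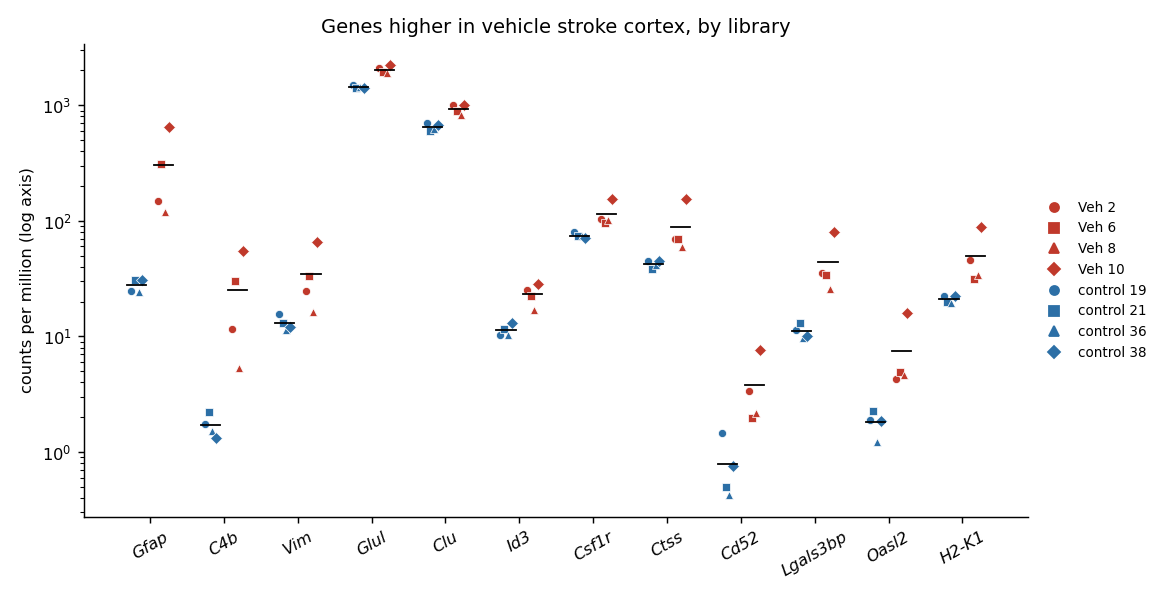
CPM on a log axis for 12 genes called higher in Veh, with the 4 control libraries in blue and the 4 Veh libraries in red, each library with its own symbol and a black bar at the group mean. In all 12 genes the red symbols lie above the blue ones, and Veh 10 is the highest symbol except in Clu, reaching 650.2 CPM for Gfap, 54.9 CPM for C4b and 7.63 CPM for Cd52.

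Some genes of microglia and lysosomes rose. All 20 tested genes of homeostatic microglia were positive, with 6 higher, none lower and a median of 0.52, and all 21 tested genes of activated microglia and macrophages were positive, with 6 higher and a median of 0.52. Of the 28 cathepsin and lysosomal genes 9 were higher, 26 were positive and the median was 0.41. With an offset for transcript length and GC content, described with the channel genes, 5 lysosomal genes were called higher. Some genes are on more than 1 of these lists.

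Csf1r, the receptor that microglia need for survival, was 104, 95.5, 102 and 155 CPM in the Veh libraries and 80.6, 73.4, 73.9 and 70.4 CPM in the control libraries. The lowest Veh library stood above the highest control library, and Veh 10 was the highest (log2 fold change 0.61, SE 0.132, adjusted p = 0.0746). Cx3cr1, the fractalkine receptor, was 58.8 to 89.8 CPM in Veh and 43.1 to 51.3 CPM in control (0.57, adjusted p = 0.0747), P2ry13, a purinergic receptor, was 11.7 to 17.02 CPM in Veh and 8.07 to 9.94 CPM in control (0.64, adjusted p = 0.0752), and Olfml3, an extracellular matrix protein of microglia, was 24.4 to 49.1 CPM in Veh and 15.6 to 19.8 CPM in control (0.87, adjusted p = 0.0746). The most specific microglial markers of the list, P2ry12 at 20.5 to 37.3 CPM in Veh and 19.2 to 22.5 CPM in control (0.37, adjusted p = 0.263) and Tmem119 at 21.1 to 28.7 CPM in Veh and 17.9 to 28.4 CPM in control (0.21, adjusted p = 0.528), overlapped between the groups and did not pass the test. Aif1, which encodes IBA1, was 3.98 to 8.48 CPM in Veh and 3.02 to 5.002 CPM in control and did not pass either (0.55, adjusted p = 0.284).

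Among genes of activated cells, Cd9 and Cd63, both tetraspanins, were 28.2 to 52.3 CPM in Veh and 21.2 to 24.98 CPM in control (0.82, adjusted p = 0.0567) and 40.4 to 58.6 CPM in Veh and 27.9 to 40.3 CPM in control (0.67, adjusted p = 0.0717). Cd52, a leukocyte surface glycoprotein, was 3.39, 1.97, 2.17 and 7.63 CPM in the Veh libraries and 1.46, 0.502, 0.423 and 0.756 CPM in the control libraries (log2 fold change 2.24, SE 0.507, adjusted p = 0.0801), with the lowest Veh library a little above the highest control library. Trem2, the lipid-sensing receptor of disease-associated microglia, was 11.6 to 33.9 CPM in Veh and 8.41 to 11.4 CPM in control with no overlap but did not pass the test (1.01, adjusted p = 0.108), and the phagocyte marker Cd68 was 9.19 to 23.6 CPM in Veh and 6.07 to 8.93 CPM in control (0.92, adjusted p = 0.113). Lag3, an inhibitory MHC class II receptor that microglia also express, was 16.4, 11.4, 12.3 and 29.6 CPM in the Veh libraries and 6.74, 5.06, 4.48 and 6.28 CPM in the control libraries (log2 fold change 1.62, SE 0.276, adjusted p = 0.0475), each Veh library well above each control library.

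Among lysosomal genes Veh 10 again stood highest. Ctss, the cathepsin of antigen-processing cells, was 69.5, 69.3, 58.98 and 155 CPM in the Veh libraries and 45.2, 38.5, 41.7 and 45.3 CPM in the control libraries (log2 fold change 1.05, SE 0.244, adjusted p = 0.0849), with Veh 10 more than double any other library and the log2 fold change 0.63 without it. Ctsc was 7.29 to 15.9 CPM in Veh and 4.06 to 6.03 CPM in control (1.07, adjusted p = 0.0849) and Ctsz 54.6 to 75.04 CPM in Veh and 41.04 to 50.5 CPM in control (0.50, adjusted p = 0.0746). Lyz2, the lysozyme of myeloid cells, was 9.52, 8.63, 7.29 and 35.5 CPM in the Veh libraries and 4.9, 3.81, 2.71 and 4.63 CPM in the control libraries (log2 fold change 1.92, SE 0.45, adjusted p = 0.0849). Lamp1, a lysosomal membrane protein found in all cells, was 339 to 371 CPM in Veh and 277 to 309 CPM in control (0.28, adjusted p = 0.0849). Csf3r, the granulocyte colony-stimulating factor receptor, was 7.197 to 15.9 CPM in Veh and 4.06 to 6.67 CPM in control (0.98, adjusted p = 0.089) and was the only 1 of 12 neutrophil genes with enough reads to test.

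Without Veh 2, Veh 10, control 21, control 36 or control 38, the called homeostatic genes numbered 0, 2, 0, 0 and 0, the activated genes 0, 2, 0, 0 and 0, and the lysosomal genes 0, 3, 0, 0 and 0. Without Veh 6 or Veh 8 the activated genes numbered 10. The median without Veh 10 was 0.35, 0.36 and 0.28 for the same lists.

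Genes of complement and antigen presentation were higher in part, and their Veh libraries differed widely. Of 17 tested complement genes 3 were higher and 15 positive, with a median of 0.81. For MHC class I and peptide loading 2 of 18 were higher and all 18 positive (median 0.50), and for MHC class II 1 of 7 was higher and 6 positive (median 1.95). Another 3 class II genes had too few reads to test. The higher class II gene, H2-Ab1, entered the test through its Veh reads alone, so that its direction was set by the filter.

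C4b, a component of the classical complement pathway (mm10 chr17:34728380-34743882), was 11.5, 29.9, 5.296 and 54.9 CPM in the Veh libraries and 1.74, 2.22, 1.52 and 1.32 CPM in the control libraries. Its lowest Veh library was above every control library, but the Veh libraries spanned a wide range, with Veh 10 and Veh 6 highest (log2 fold change 3.896, SE 0.594, adjusted p = 0.0373, 3.19 without Veh 10). Reads that C4b shares with its near-identical neighbor C4a may have been split or lost in counting. C3ar1, the receptor for the C3a fragment, was 2.31 to 4.69 CPM in Veh and 1.14 to 2.11 CPM in control (1.27, adjusted p = 0.0927), and Serping1, the inhibitor of the C1 complex, was 3.097, 4.78, 2.35 and 14.4 CPM in the Veh libraries and 1.09, 1.76, 1.78 and 1.32 CPM in the control libraries (2.05, adjusted p = 0.0854). The genes of C1q itself, C1qa at 50.2 to 122 CPM in Veh and 28.9 to 56.9 CPM in control (0.83, adjusted p = 0.15) and C1qb at 49.2 to 101 CPM in Veh and 30.5 to 52.7 CPM in control (0.68, adjusted p = 0.155), overlapped between the groups and did not pass.

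H2-K1, an MHC class I heavy chain, was 45.8, 31.1, 33.7 and 89.2 CPM in the Veh libraries and 22.5, 19.8, 19.3 and 22.2 CPM in the control libraries (log2 fold change 1.25, SE 0.268, adjusted p = 0.0746), and the related H2-D1 was 15.7 to 33.9 CPM in Veh and 10.8 to 13.9 CPM in control (0.85, adjusted p = 0.0949). All Veh libraries exceeded all control libraries in both, with Veh 10 highest. Their light chain B2m was 90.9 to 204 CPM in Veh and 71.2 to 89.1 CPM in control, also without overlap, and did not pass the test (0.74, adjusted p = 0.11). H2-Ab1, the beta chain of MHC class II, was 1.87, 1.76, 0.453 and 9.29 CPM in the Veh libraries and 0.272, 0.335, 0 and 0.0472 CPM in the control libraries (log2 fold change 4.25, SE 0.933, adjusted p = 0.0746), and rested on few reads in control, 8, 8, 0 and 1 counts. H2-Aa at 0.7596 to 8.82 CPM in Veh and 0 to 0.795 CPM in control (3.25, adjusted p = 0.103) and the invariant chain Cd74 at 1.404 to 24.6 CPM in Veh and 0.846 to 2.41 CPM in control (2.26, adjusted p = 0.167, 0.68 without Veh 10) did not pass. Histocompatibility genes share sequence with each other, so reads may be split among them.

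Without Veh 2, Veh 10, control 21, control 36 or control 38, the called complement genes numbered 1, 1, 0, 0 and 1, the class I genes 0, 1, 0, 0 and 0 and the class II genes 0 each time. Without Veh 6 the class I genes numbered 6 and the class II genes 4. The class II median was 0.79 without Veh 10.

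Genes of the type I interferon response, which cells switch on against viruses, were higher in Veh in 8 of 27 tested cases and lower in none. Of the 27, 26 were positive and the median was 0.83, or 0.49 without Veh 10. Many such genes carry the interferon-stimulated response element, searched here as GAAANNGAAA on both strands of the 250 bases before each gene's start in RefSeq (GRCm38.p6). It occurred in 10 of the 22 tested list genes with a window and in 2.98% of all 32851 windows, and in 3 of the 6 called and 7 of the 16 other list genes. The stretches of the 3 called genes are printed 5′ to 3′ on the gene's strand with the matches in capitals, where adjoining matches overlap, because these genes moved in the same direction, and Isg15, which did not pass the test, is set beside them.
Ifit3 on the plus strand of chr19:34583333-34583456: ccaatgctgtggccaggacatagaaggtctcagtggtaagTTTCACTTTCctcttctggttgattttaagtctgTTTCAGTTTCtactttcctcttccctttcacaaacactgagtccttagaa
Oas1a on the minus strand of chr5:120907526-120907585: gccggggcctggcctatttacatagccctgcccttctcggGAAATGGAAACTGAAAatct
Bst2 on the minus strand of chr8:71537547-71537642: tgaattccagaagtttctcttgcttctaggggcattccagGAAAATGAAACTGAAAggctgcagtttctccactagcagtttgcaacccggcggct
Isg15 on the minus strand of chr4:156200835-156200936: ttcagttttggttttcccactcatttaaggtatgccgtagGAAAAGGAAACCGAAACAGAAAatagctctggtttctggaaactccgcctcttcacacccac
A match describes these letters only. The called genes Ifi27l2a and Rtp4 had no RefSeq window.

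Lgals3bp, a secreted glycoprotein induced by interferon (mm10 chr11:118392751-118402092), was 35.7, 33.9, 25.7 and 79.4 CPM in the Veh libraries and 11.3, 13.1, 9.69 and 10.1 CPM in the control libraries. The lowest Veh library was about double the highest control library, and the log2 fold change was 1.98 (SE 0.287, adjusted p = 0.0373) or 1.52 without Veh 10. Oasl2, of the antiviral oligoadenylate synthetase family, was 4.26, 4.89, 4.62 and 16.02 CPM in the Veh libraries and 1.91, 2.26, 1.23 and 1.84 CPM in the control libraries (log2 fold change 2.04, SE 0.419, adjusted p = 0.0732), with Veh 10 apart from the other libraries. Ifitm3, which blocks virus entry, was 8.92 to 22.2 CPM in Veh and 2.85 to 6.97 CPM in control (1.32, adjusted p = 0.0849), and Rtp4, an interferon-induced transporter of receptors, was 3.01 to 6.12 CPM in Veh and 1.05 to 1.99 CPM in control (1.41, adjusted p = 0.0732). Of the genes with sequences above, Ifit3 was 8.6 to 19.3 CPM in Veh and 3.68 to 6.09 CPM in control (1.13, adjusted p = 0.0849), Oas1a 0.724 to 2.56 CPM in Veh and 0.209 to 0.567 CPM in control (1.97, adjusted p = 0.0949) and Bst2, the virus tether tetherin, 3.62 to 14.7 CPM in Veh and 1.78 to 3.74 CPM in control (1.597, adjusted p = 0.0849), while Isg15 was 2.28 to 4.598 CPM in Veh and 0.544 to 2.45 CPM in control (0.77, adjusted p = 0.377). Ifit3 shares its upstream stretch with its copy Ifit3b letter for letter. Reads of the pair may be split if their transcripts are alike too, which was not tested. Ifi27, an interferon-inducible mitochondrial protein gene outside the list, was 38.6, 39.7, 29.2 and 41.3 CPM in the Veh libraries and 24.2, 19.5, 22.4 and 19.98 CPM in the control libraries (log2 fold change 0.79, SE 0.121, adjusted p = 0.0373), with more even Veh libraries than Oasl2.

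Of 15 tested GTPase and regulator genes induced by interferon gamma 1 was higher, all 15 were positive and the median was 0.74. The higher gene was Irf8, a transcription factor of myeloid cells, at 7.65, 6.22, 7.51 and 12.6 CPM in the Veh libraries and 4.29, 3.18, 2.92 and 4.297 CPM in the control libraries (log2 fold change 1.21, SE 0.24, adjusted p = 0.0678). Irf1 (0.79, adjusted p = 0.151) and Gbp2 (0.97, adjusted p = 0.343) did not pass, and Gbp2 was 0.16 without Veh 10. Without Veh 2, Veh 10, control 21, control 36 or control 38, the called type I genes numbered 1, 2, 0, 0 and 1, and the called interferon gamma genes 0, 1, 0, 0 and 1, or 3 without Veh 6.

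Most chemokine genes had few reads, and the list's summed level, 1249 to 1433 CPM in Veh and 1343 to 1708 CPM in control, came mostly from the fractalkine gene Cx3cl1, at 1015 to 1166 CPM in Veh and 1109 to 1416 CPM in control (-0.20, adjusted p = 0.23). Of 25 listed 11 could be tested, of which 2 were higher, 7 positive and 4 negative (median 0.90). Cxcl10, the interferon-induced chemokine for T cells, had 8, 16, 10 and 48 counts in the Veh libraries and 1, 0, 0 and 0 in the control libraries, a ratio of summed counts per total counts of 94.8 with an exact 95% interval of 16.5 to 3788 for counting error only (adjusted p = 0.0475). Its Veh reads alone brought Cxcl10 into the test, so that its direction was set by the filter. Ccl6 was 2.16, 1.81, 1.901 and 5.97 CPM in the Veh libraries and 0.851, 0.502, 0.592 and 0.756 CPM in the control libraries (log2 fold change 2.12, SE 0.443, adjusted p = 0.0732). Ccl4 had 11, 4, 8 and 16 counts in the Veh libraries and none in control, at least 15.0-fold higher against 3 counts over the control group, and was too low to test. Of 17 tested Toll-like receptor and cytokine genes none was called, with 3 at an unadjusted p under 0.05, among them Tlr2 at 0.993 to 4.17 CPM in Veh and 0.306 to 0.85 CPM in control (1.52, adjusted p = 0.178), and Tlr1 at 0.1204 to 1.99 CPM in Veh and 0.0945 to 0.5499 CPM in control did not pass (0.99, adjusted p = 0.576). Without Veh 10 the called chemokine genes numbered 1, and without Veh 2, control 21 or control 36 none.

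Infiltrating and meningeal cells were sought through their own markers. Of 23 listed lymphocyte genes 2 had enough reads to test and neither was called. The T cell gene Cd3e was 0 to 0.474 CPM in Veh and 0 to 0 CPM in control and Cd3g 0 to 0.0905 CPM in Veh and 0 to 0 CPM in control. The neutrophil genes S100a8 (0 to 0.711 CPM in Veh and 0 to 0 CPM in control) and S100a9 (0 to 1.19 CPM in Veh and 0 to 0.204 CPM in control) were near or at 0 in all libraries, with the highest value in Veh 10. Of 7 tested genes of monocytes and border macrophages none was called and 4 had an unadjusted p under 0.05 (median 1.02, or 0.33 without Veh 10). Their marker Mrc1 was 2.57, 1.08, 1.68 and 8.15 CPM in the Veh libraries and 1.29, 1.42, 0.465 and 1.56 CPM in the control libraries (1.502, adjusted p = 0.215), and Lyve1 was 0.175 to 0.664 CPM in Veh and 0.169 to 0.377 CPM in control. The summed level of the list was 43.8 to 163 CPM in Veh and 45.3 to 48.6 CPM in control, high in Veh 10 only.

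Fibroblast and meningeal genes were also highest in Veh 10. Their summed level was 201 to 611 CPM in Veh and 186 to 218 CPM in control, and 1 of 18 was called higher (5 without Veh 6, 1 without Veh 8 and none with any other library left out), 17 were positive and the median was 1.16, or 0.38 without Veh 10. Col1a1, the main fibrous collagen, was 5.43, 5.42, 3.08 and 53.3 CPM in the Veh libraries and 3.37, 3.01, 3.17 and 4.16 CPM in the control libraries (2.296, adjusted p = 0.155, 0.44 without Veh 10), and the matrix proteoglycan gene Dcn was 3.62, 2.85, 2.94 and 15.7 CPM in the Veh libraries and 1.701, 1.76, 2.03 and 0.945 CPM in the control libraries (1.96, adjusted p = 0.105). The called gene was Igf2, a growth factor of the meninges and choroid plexus, at 21.9, 75.9, 14.3 and 90.7 CPM in the Veh libraries and 16.2, 13.3, 14.7 and 15.6 CPM in the control libraries (log2 fold change 1.77, SE 0.45, adjusted p = 0.0953), high in Veh 6 and Veh 10 and overlapping between the groups. Myoc, an extracellular glycoprotein of the meninges chosen after its values were seen, was 5.08, 0.201, 1.18 and 27.4 CPM in the Veh libraries and 0.5104, 0, 0 and 0.0472 CPM in the control libraries (5.696, adjusted p = 0.0849). Veh 10 was the highest Veh library for 101 of the 156 higher genes, and Veh 8 the lowest for 94. The median log2 ratio of the higher genes to the control mean was 0.67 in Veh 2, 0.56 in Veh 6, 0.44 in Veh 8 and 0.90 in Veh 10. Among the 181 lower genes Veh 2 was the lowest Veh library for 124. Their median log2 ratio was -0.55 in Veh 2, -0.353 in Veh 6, -0.40 in Veh 8 and -0.385 in Veh 10. These genes were called from the same libraries, so that the medians compare the Veh libraries with each other and their sign is no further result. The part of myeloid and meningeal cells in the glial results was not tested.

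**Figure D3:**
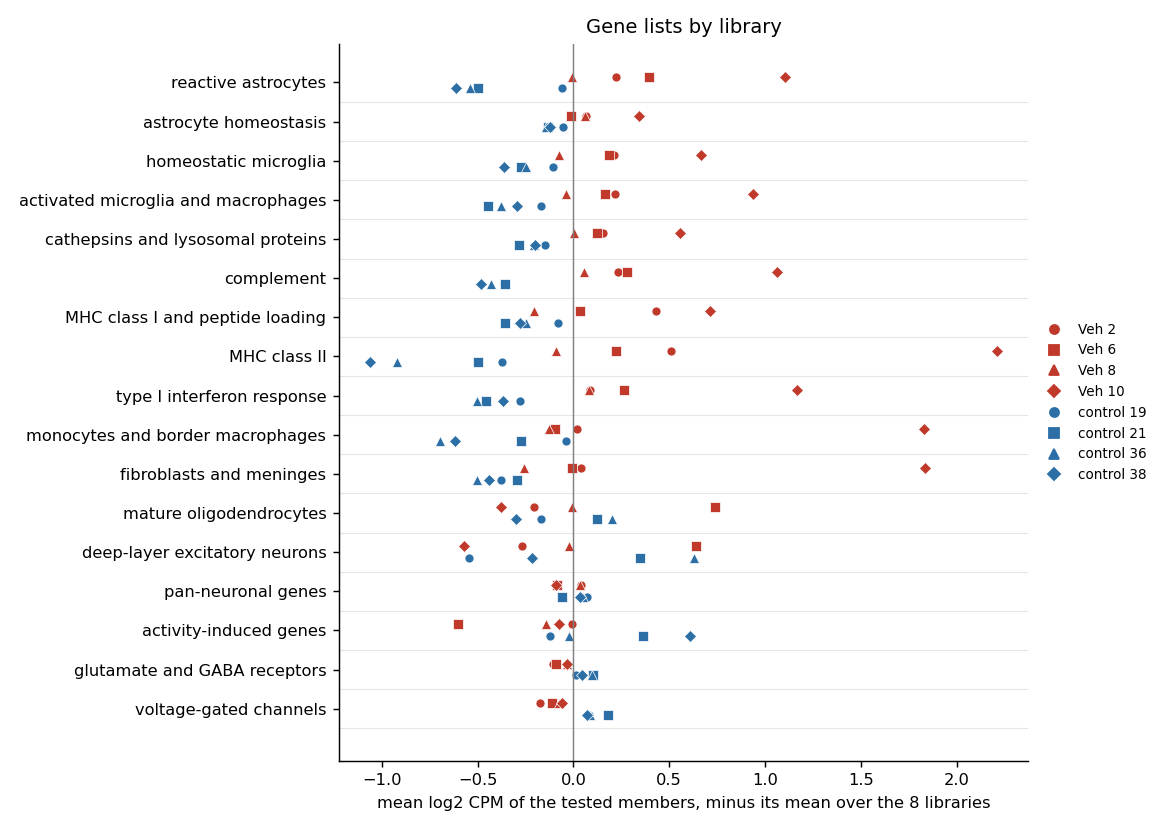
Each row is a gene list and each symbol 1 library, placed at the mean log2 CPM of the list's tested genes minus its mean over the 8 libraries. Veh libraries in red lie to the right of control libraries in blue for the astrocyte, microglial, lysosomal, complement and type I interferon lists, while Veh 8 lies among the control libraries for MHC class I at -0.21, with Veh 10 far right at 2.21 for MHC class II and 1.83 for fibroblasts and meninges, and to the left for the channels and receptors at the bottom.

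Several ion channel and receptor genes were lower in Veh, and no pan-neuronal gene was called. Of 20 pan-neuronal genes none was called, with 4 lower at an unadjusted p under 0.05 and a median of -0.03. Of 39 voltage-gated channel genes 9 were lower and none higher, 33 were negative and the median was -0.20. Of 36 glutamate and GABA receptor genes 3 were lower and none higher, 28 were negative and the median was -0.16. Negative values made up 45.7% of all tested genes.

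Cacna1a, the pore of P/Q-type calcium channels at synapses (mm10 chr8:84388440-84640246), was 166, 187, 178 and 183 CPM in the Veh libraries and 240.3, 243, 229 and 234 CPM in the control libraries. The libraries of each group were close to each other and the groups did not overlap (log2 fold change -0.40, SE 0.065, adjusted p = 0.0395). Scn1a, the sodium channel that interneurons depend on, was 122, 134, 125 and 131 CPM in the Veh libraries and 173, 217, 179 and 159 CPM in the control libraries (log2 fold change -0.51, SE 0.092, adjusted p = 0.0534). Kcnh7, a potassium channel of the ERG family, had the largest change of the 9 at 9.93, 13.7, 10.6 and 14.1 CPM in the Veh libraries and 23.8, 33.9, 16.6 and 25.3 CPM in the control libraries (log2 fold change -1.04, SE 0.193, adjusted p = 0.0534), with control 21 highest. Kcna2, a potassium channel of axons, was 334 to 385 CPM in Veh and 429 to 529 CPM in control (-0.39, adjusted p = 0.0701). Other called channel genes were Scn8a (-0.25, adjusted p = 0.0949), Kcnq3 (-0.35, adjusted p = 0.0954), Cacna1i (-0.35, adjusted p = 0.098) and Cacnb4 (-0.47, adjusted p = 0.0849).

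Gria2, the AMPA receptor subunit that sets calcium permeability, was 274, 329.5, 319 and 349 CPM in the Veh libraries and 415, 488, 432 and 400.2 CPM in the control libraries (log2 fold change -0.45, SE 0.088, adjusted p = 0.0631). Gabrb2, a subunit of synaptic GABA-A receptors, was 226 to 259 CPM in Veh and 282 to 360.2 CPM in control (-0.38, adjusted p = 0.0746). In both genes every Veh library lay below every control library. The obligatory NMDA receptor subunit Grin1 was 659 to 742 CPM in Veh and 695 to 744 CPM in control (-0.05, adjusted p = 0.757), and Gria1 was 329 to 352 CPM in Veh and 311 to 342 CPM in control (0.05, adjusted p = 0.756). Grm2, a presynaptic metabotropic receptor that the study followed, was 65.8 to 98.5 CPM in Veh and 67 to 93.4 CPM in control (0.09, adjusted p = 0.79).

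**Figure D4:**
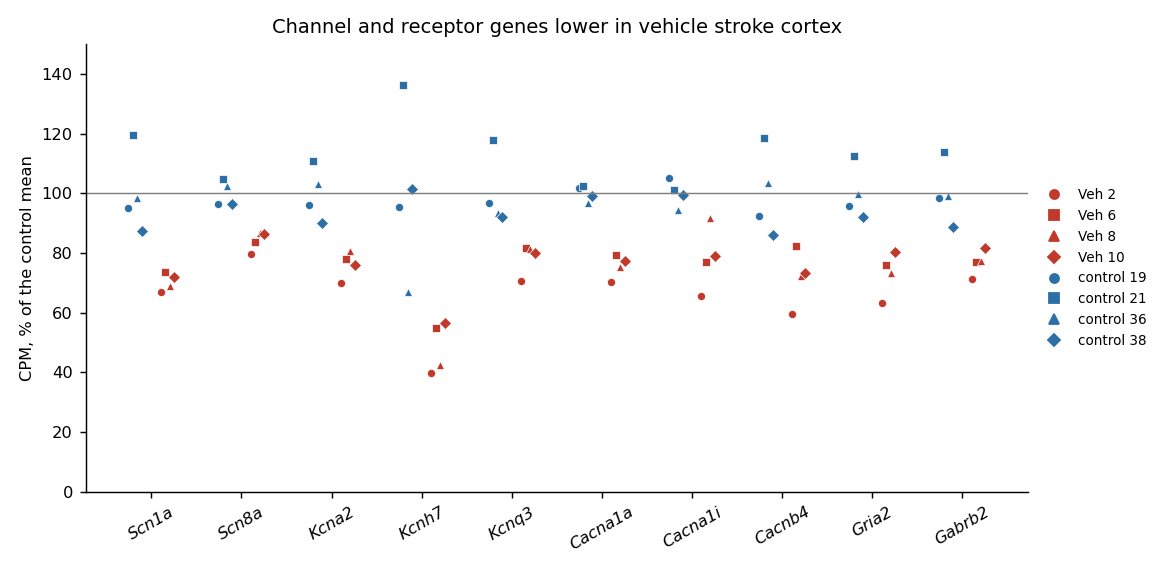
CPM as a percent of the mean of the 4 control libraries for 8 channel genes and 2 receptor genes called lower in Veh, with Veh in red and control in blue. Each red symbol lies under each blue symbol of the same gene, and Kcnh7 has both the lowest Veh values and the widest spread in control, from 16.6 to 33.9 CPM.

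The lower genes were long. Their median transcript length was 7130 bases, against 2522 for the higher genes and 3367.5 for all tested genes with annotation, and their median GC content was 45.7%, against 52.5% and 49.9%. In 5 equal groups by length, the longest, from 5264 bases, held 135 of the 181 lower genes, 4.5% of its members, and its median log2 fold change was -0.11, while the shortest had 0.07. An offset for the trend with length and GC content left 115 genes higher and 94 lower, and kept 83 of the 156 and 67 of the 181. With it the median of the lower genes went from -0.43 to -0.28 and of the higher genes from 0.66 to 0.61.

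With the offset 3 of the 39 channel genes, all among the 9, and 2 of the 36 receptor genes were called lower. Over all tested genes 94 were called lower with it, and the list medians were -0.08 and -0.05. Cacna1a (-0.33, adjusted p = 0.053), Scn1a (-0.29, adjusted p = 0.077) and Kcnh7 (-0.71, adjusted p = 0.077) were still called, whereas Kcna2 (-0.15, adjusted p = 0.249), Scn8a (-0.08, adjusted p = 0.486), Kcnq3 (-0.09, adjusted p = 0.477), Cacna1i (-0.24, adjusted p = 0.203), Cacnb4 (-0.24, adjusted p = 0.119) and Gria2 (-0.13, adjusted p = 0.236) were not. Of the higher genes Gfap (3.395, adjusted p = 0.0434) and Glul (0.44, adjusted p = 0.0434) kept their calls with it. Mlc1, Cd14, Ctsz, Lamp1, Csf3r, Serping1, H2-D1, Oas1a and Igf2 lost theirs, with adjusted p from 0.115 for Cd14 to 0.224 for Lamp1. Without Veh 2, Veh 6, Veh 8, Veh 10, control 21, control 36 or control 38, the called channel genes numbered 0, 5, 5, 3, 0, 1 and 6, and the called receptor genes 0, 3, 1, 2, 0, 0 and 3. How much of the length trend came from RNA quality or library preparation was not tested.

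**Figure D5:**
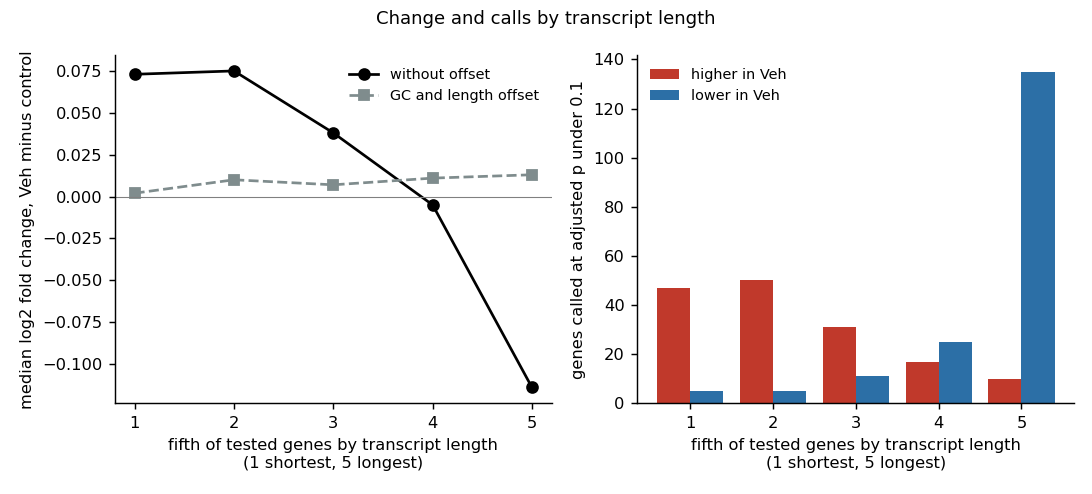
Tested genes in 5 equal groups from the shortest to the longest transcript. On the left the median log2 fold change of Veh minus control falls from 0.07 in the shortest to -0.11 in the longest group and lies between 0.002 and 0.013 with the offset (squares), and on the right the bars count the called genes, with 135 lower and 10 higher in the longest group.

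The genes with the smallest p among those lower in Veh held further long transcripts. Arfgef3, a regulator of secretory vesicles, was 19.8, 23.6, 18.3 and 24.5 CPM in the Veh libraries and 46.3, 55.4, 29.9 and 42.1 CPM in the control libraries (log2 fold change -1.01, SE 0.164, adjusted p = 0.0395), and -0.73, adjusted p = 0.0629 with the offset. Rock2, a kinase through which several axon growth inhibitors act, was 206, 212, 209 and 192 CPM in the Veh libraries and 278, 301, 262 and 258 CPM in the control libraries (log2 fold change -0.42, SE 0.071, adjusted p = 0.0464), and -0.21, adjusted p = 0.224 with the offset. Fam126b was 66.6 to 75.4 CPM in Veh and 92.3 to 112 CPM in control (-0.51, adjusted p = 0.0395, -0.22, adjusted p = 0.162 with the offset). Paqr9 was 62.95 to 70 CPM in Veh and 83.1 to 97.3 CPM in control (-0.45, adjusted p = 0.0534, -0.28, adjusted p = 0.132 with the offset). Lrrc7, the postsynaptic scaffold densin-180, was 111 to 134 CPM in Veh and 153 to 202 CPM in control (-0.53, adjusted p = 0.0534, -0.40, adjusted p = 0.0653 with the offset).

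Others of them lay closer to their value with the offset. Scube1, a secreted signaling protein, was 90.97 to 108 CPM in Veh and 129 to 152 CPM in control (-0.46, adjusted p = 0.0534, -0.44, adjusted p = 0.053 with the offset). Lsm11, of the histone RNA processing complex, was 26.8 to 37.1 CPM in Veh and 44.1 to 58.7 CPM in control (-0.69, adjusted p = 0.0534, -0.65, adjusted p = 0.076 with the offset). Gucy1a2, a subunit of the nitric oxide receptor, was 37.6 to 50.1 CPM in Veh and 59.1 to 79.5 CPM in control (-0.66, adjusted p = 0.0534, -0.57, adjusted p = 0.053 with the offset). Pcsk1, the proprotein convertase that matures neuropeptides, was 36.2, 32.9, 33.4 and 30.8 CPM in the Veh libraries and 59.6, 50.3, 49.2 and 44.7 CPM in the control libraries (log2 fold change -0.61, SE 0.10, adjusted p = 0.0395), and -0.49, adjusted p = 0.106 with the offset.

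Genes induced by neuronal firing were mostly lower in Veh by sign and varied between libraries. Of 25 tested 2 were lower and none higher, 21 were negative and the median was -0.46, with 12 lower at an unadjusted p under 0.05. Arc, which regulates AMPA receptors at active synapses, was 215, 75.1, 186 and 246 CPM in the Veh libraries and 275, 645, 426 and 832 CPM in the control libraries (log2 fold change -1.59, SE 0.349, adjusted p = 0.0746). The groups did not overlap, Veh 6 was lowest and control 38 and control 21 were highest. Homer1, a postsynaptic scaffold with an activity-induced short form, was 123, 117, 125 and 122 CPM in the Veh libraries and 228, 188, 144 and 160.4 CPM in the control libraries (log2 fold change -0.56, SE 0.118, adjusted p = 0.0732), or -0.37, adjusted p = 0.226 with the offset. Fos was 7.703 to 19.3 CPM in Veh and 14.2 to 49.1 CPM in control (-0.97, adjusted p = 0.18) and Egr1 230.4 to 449.5 CPM in Veh and 406 to 647 CPM in control (-0.59, adjusted p = 0.151), both overlapping. Without control 19, 7 were called, without Veh 10 or control 38, 1, and without Veh 2, Veh 8, control 21 or control 36 none. Handling and time of death, to which these genes respond, are not given in the sources used here.

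Synaptic and neuron subtype genes showed few or no calls. Of 33 genes of synaptic vesicles and scaffolds only Homer1 was called and 6 were lower at an unadjusted p under 0.05 (median -0.06), with Syp at 1987 to 2589 CPM in Veh and 1793 to 2547 CPM in control (0.00, adjusted p = 0.993) and Syn1 at 948 to 1086 CPM in Veh and 971 to 1071 CPM in control (0.01, adjusted p = 0.977). Rbfox3, which encodes the neuronal nuclear antigen NeuN, was 449.7 to 523 CPM in Veh and 436 to 518 CPM in control (0.04, adjusted p = 0.858), and Snap25, of the vesicle fusion machinery, was 3223 to 3699 CPM in Veh and 3516 to 3695 CPM in control (-0.08, adjusted p = 0.602). No upper-layer gene of 20 was called (1 higher and 2 lower at an unadjusted p under 0.05, median 0.06), with Cux1 at 0.20, adjusted p = 0.556 and Cux2 at 0.24, adjusted p = 0.701 on the log2 scale. None of the 18 deep-layer genes was called (0 and 3, median -0.11), with Bcl11b at -0.23, adjusted p = 0.626 and Fezf2 at -0.03, adjusted p = 0.941. Their mean level ranged within both groups, from -0.57 in Veh 10 to 0.64 in Veh 6 and from -0.54 in control 19 to 0.63 in control 36 on the log2 scale. None of the 25 interneuron genes was called (2 and 3, median 0.06), with Gad1 at 0.01, adjusted p = 0.961 and Gad2 at 0.08, adjusted p = 0.718. None of the 23 neuropeptide genes was called (2 and 1, median -0.02), with Penk, the enkephalin precursor, at 20.6 to 36.6 CPM in Veh and 16.6 to 31.6 CPM in control (0.36, adjusted p = 0.424) and Pdyn at 0.40, adjusted p = 0.192.

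The genes that the study singled out in its peptide-treated animals were looked up here as well. Sag, which encodes the visual arrestin, was higher in Veh at 2.75, 2.77, 3.89 and 2.89 CPM in the Veh libraries and 1.53, 0.753, 1.06 and 1.84 CPM in the control libraries (log2 fold change 1.25, SE 0.32, adjusted p = 0.0961), with no overlap at a low level. Nr4a2, the orphan receptor NURR1, was 5.49, 7.904, 5.79 and 3.56 CPM in the Veh libraries and 5.75, 11.9, 7.23 and 7.84 CPM in the control libraries (log2 fold change -0.52, SE 0.261, adjusted p = 0.349) and did not pass. Bcl2, the anti-apoptotic factor, was 18.2, 19.8, 16.5 and 18.3 CPM in the Veh libraries and 22.2, 25.7, 20.3 and 20.9 CPM in the control libraries, without overlap, and did not pass (log2 fold change -0.29, SE 0.108, adjusted p = 0.2), or -0.15, adjusted p = 0.501 with the offset. Igfn1 (0.33, adjusted p = 0.621), Sema4d (0.04, adjusted p = 0.909), Rasgef1c (0.20, adjusted p = 0.454), Dact2 (0.49, adjusted p = 0.155), Cited4 (0.41, adjusted p = 0.362) and Tpbg (-0.41, adjusted p = 0.454) did not pass either.

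The chondroitin sulfate proteoglycans (CSPGs) of the extracellular matrix restrain axon growth, in part through the phosphatase PTPσ encoded by Ptprs. Of 22 genes for their cores, tenascins, link proteins and other proteoglycans or matrix receptors 2 were higher, 1 lower and 17 positive (median 0.20). The 2 higher were Sdc4 and Cd44, and no lectican, tenascin or link protein gene was called higher. Sdc4, the cell-surface heparan sulfate proteoglycan syndecan 4, was 48.96, 42.8, 38.97 and 52.1 CPM in the Veh libraries and 32.9, 36.4, 33.5 and 34.5 CPM in the control libraries (log2 fold change 0.41, SE 0.10, adjusted p = 0.0854), with no overlap, and Cd44 was described among the astrocyte genes. Tnr, tenascin R of perineuronal nets, was 34.01, 43.9, 39.1 and 46.7 CPM in the Veh libraries and 59.9, 72.3, 54.6 and 52.5 CPM in the control libraries (log2 fold change -0.55, SE 0.121, adjusted p = 0.0747), or -0.32, adjusted p = 0.104 with the offset. The lectican genes did not pass, with Ncan at 268 to 332 CPM in Veh and 249 to 269.5 CPM in control (0.20, adjusted p = 0.218), Bcan at 251 to 272 CPM in Veh and 206 to 244 CPM in control (0.19, adjusted p = 0.204), Vcan at 0.11, adjusted p = 0.814 and Acan at -0.18, adjusted p = 0.781. Without Veh 2, Veh 10, control 21, control 36 or control 38, no gene of the list was higher.

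The receptor genes of the CSPGs showed no call among 10 (2 higher and 1 lower at an unadjusted p under 0.05, median 0.04). Ptprs was 366, 423, 428 and 459 CPM in the Veh libraries and 414, 448, 451 and 478 CPM in the control libraries (log2 fold change -0.10, SE 0.079, adjusted p = 0.597), and the related Ptprf, which encodes LAR, was 55.7 to 70.9 CPM in Veh and 64.4 to 73.01 CPM in control (-0.12, adjusted p = 0.542). Of 35 enzyme genes for chondroitin and heparan sulfate 1 was lower, Chsy3, a chondroitin synthase, at 12.7, 15.2, 12.8 and 12.6 CPM in the Veh libraries and 17.8, 16.8, 22.6 and 21.3 CPM in the control libraries (log2 fold change -0.56, SE 0.127, adjusted p = 0.0838), while its relative Chsy1 was 7.303 to 15.1 CPM in Veh and 7.32 to 13.98 CPM in control (-0.04, adjusted p = 0.958). Among 22 matrix proteases and inhibitors none was called (4 higher and 0 lower at an unadjusted p under 0.05), with Mmp2 at 2.99 to 3.69 CPM in Veh and 1.09 to 2.93 CPM in control (0.88, adjusted p = 0.176) and no count of Mmp3 in any library. Of 25 collagen genes Col25a1, a membrane collagen of neurons, was lower at 20.6 to 28.2 CPM in Veh and 33.4 to 38.9 CPM in control (-0.52, adjusted p = 0.0732), or -0.40, adjusted p = 0.107 with the offset. Col1a2 was 6.099 to 57.3 CPM in Veh and 4.39 to 5.82 CPM in control and did not pass (1.91, adjusted p = 0.16, 0.42 without Veh 10). Chsy3 was called also without Veh 6 and control 19, where 4 and 2 enzyme genes were lower, and not with any other library left out.

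Of 21 genes of axon growth 3 were higher and none lower (median 0.04). Atf3, a transcription factor of injured neurons, was 1.11, 1.93, 1.09 and 1.09 CPM in the Veh libraries and 0.238, 0.0418, 0.338 and 0.519 CPM in the control libraries (log2 fold change 2.21, SE 0.541, adjusted p = 0.089), on 1 to 11 counts in each control library. Atf3 passed the filter through its Veh reads, so that its direction was set by the filter. It was called in none of the 8 fits with 1 library left out. Stmn4, a regulator of microtubules, was 316, 287, 244 and 256 CPM in the Veh libraries and 222, 202, 202 and 205 CPM in the control libraries (log2 fold change 0.41, SE 0.085, adjusted p = 0.0732), and Rab13, a small GTPase, was 4.75 to 6.26 CPM in Veh and 2.79 to 4.08 CPM in control (0.86, adjusted p = 0.0849). In all 3 every Veh library exceeded every control library. Sox11, a growth-associated factor of young neurons, was 7.36 to 9.78 CPM in Veh and 7.37 to 11.4 CPM in control (0.01, adjusted p = 0.991). Of 47 axon guidance genes 1 was higher and 2 lower, with 4 higher and 14 lower at an unadjusted p under 0.05 (median -0.10). Efna1, an ephrin ligand, was 3.29 to 5.67 CPM in Veh and 1.89 to 2.28 CPM in control (0.95, adjusted p = 0.0963). Slit2, a repellent ligand, was 23.3 to 27.7 CPM in Veh and 28.6 to 37.4 CPM in control (-0.40, adjusted p = 0.0964, -0.19, adjusted p = 0.311 with the offset), and the semaphorin coreceptor Plxna4 was 77.2 to 91.6 CPM in Veh and 97.96 to 112 CPM in control (-0.31, adjusted p = 0.0964, -0.13, adjusted p = 0.354 with the offset). Without Veh 10, 1 axon growth gene was called higher and 1 guidance gene lower. Without Veh 6, 1 axon growth gene was higher and 1 lower, and 1 guidance gene was higher and 4 lower. Without Veh 2, control 21, control 36 or control 38 no gene of these lists was called.

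Of 28 trophic genes Igf2 and Fgf1 were higher and Vegfa lower. Fgf1, an acidic fibroblast growth factor, was 54.4 to 62.95 CPM in Veh and 42.8 to 48.4 CPM in control (0.31, adjusted p = 0.0963). Vegfa, the angiogenic factor, was 51.1, 58.3, 60.7 and 55.6 CPM in the Veh libraries and 63.2, 76.8, 78.1 and 70.4 CPM in the control libraries (log2 fold change -0.35, SE 0.089, adjusted p = 0.0945), each Veh library under each control library, and -0.41, adjusted p = 0.076 with the offset. None of the 18 neuroblast genes was called (0 higher and 2 lower at an unadjusted p under 0.05), with Dcx at 17.5 to 25.8 CPM in Veh and 21.3 to 36.8 CPM in control (-0.29, adjusted p = 0.436), nor any of 18 mitosis genes (0 and 0), with Mki67 at 0.0453 to 1.56 CPM in Veh and 0.272 to 1.56 CPM in control (0.34, adjusted p = 0.858) and Top2a at 0.117 to 2.18 CPM in Veh and 0.142 to 0.5104 CPM in control (1.36, adjusted p = 0.376). The 30 apoptosis genes held 1 call, the BH3-only factor Hrk, at 33.8, 39.7, 24.1 and 32.2 CPM in the Veh libraries and 20.1, 18.8, 24.6 and 21.6 CPM in the control libraries (log2 fold change 0.61, SE 0.142, adjusted p = 0.0849), while Bcl2l1 was -0.01, adjusted p = 0.985. Veh 8 overlapped with control in Hrk. No trophic or apoptosis gene was called without Veh 2, Veh 10, control 21, control 36 or control 38, and 2 apoptosis genes were called without Veh 8.

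Some clock genes differed between the groups. Of 18, 3 were higher and 1 lower, with a median of -0.07. Dbp, an output gene of the CLOCK and ARNTL pair, was 101, 89.3, 82.8 and 104 CPM in the Veh libraries and 59, 63.1, 63.7 and 76.03 CPM in the control libraries (log2 fold change 0.53, SE 0.098, adjusted p = 0.0534). Nr1d1, the repressor REV-ERB alpha, was 381, 322, 352 and 349.9 CPM in the Veh libraries and 238, 258, 274 and 286 CPM in the control libraries (log2 fold change 0.41, SE 0.078, adjusted p = 0.0537). Per2, a repressor of the same pair, was 19.6, 19.2, 12.1 and 17.6 CPM in the Veh libraries and 24.6, 34.3, 28.7 and 37.2 CPM in the control libraries (log2 fold change -0.86, SE 0.162, adjusted p = 0.0534). No library of 1 group overlapped with the other in these 3 genes, and Dbp and Nr1d1 were higher in Veh while Per2 was lower. Bhlhe41 was 38.5 to 45.3 CPM in Veh and 26.5 to 34.3 CPM in control (0.46, adjusted p = 0.0746), whereas Per1 (-0.41, adjusted p = 0.367), Per3 (-0.23, adjusted p = 0.322) and Arntl (-0.05, adjusted p = 0.841) did not pass.

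The E-box CACGTG that CLOCK and ARNTL bind reads the same on both strands and was searched in the 250 bases upstream of each gene. It was found in 5 of the 16 clock genes with a RefSeq window and in 9.57% of all tested genes with a window. Counted by window instead of by gene, it was in 6.02% of all windows. Among the called genes with a window it lay in Bhlhe41 only, and not in those of Dbp and Nr1d1, and Per2 had no window. The Bhlhe41 stretch is printed because this gene was called, with the E-box in capitals.
Bhlhe41 on the minus strand of chr6:145865528-145865613: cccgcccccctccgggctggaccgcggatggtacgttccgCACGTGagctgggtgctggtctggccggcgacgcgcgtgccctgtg
Per2 lost its call without Veh 2, control 21, control 36 or control 38. Of the 3 higher clock genes 2 were called without Veh 10 or control 38 and none without Veh 2, control 21 or control 36, and Dbp was 0.42, adjusted p = 0.119 with the offset. These genes cycle over the day, and the time of tissue collection is not given for either group, so that time of day and group cannot be told apart.

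Metabolic and stress genes mostly did not pass. Of 26 cholesterol genes 2 were lower and none higher, 21 were negative and the median was -0.24. Idi1, an enzyme of the isoprenoid steps of cholesterol synthesis, was 10.1, 12.4, 12.8 and 12.6 CPM in the Veh libraries and 13.3, 19.96, 18.2 and 19.2 CPM in the control libraries (log2 fold change -0.56, SE 0.144, adjusted p = 0.0963). Every Veh library was below every control library, with Veh 2 lowest. Of 29 hypoxia and glycolysis genes the glucose transporter Slc2a1 was higher at 79.7 to 90.7 CPM in Veh and 67.9 to 74.96 CPM in control (0.28, adjusted p = 0.0996), and Vegfa and Pfkfb3 were lower, Pfkfb3 at 35.1, 38.6, 38.6 and 37.8 CPM in the Veh libraries and 56.5, 50.3, 43.2 and 51.6 CPM in the control libraries (log2 fold change -0.43, SE 0.093, adjusted p = 0.0746). Of 26 iron and antioxidant genes Prdx6, a peroxiredoxin, was higher at 193 to 254 CPM in Veh and 148 to 191 CPM in control (0.44, adjusted p = 0.0936), and the ferritin genes Fth1 (0.15, adjusted p = 0.511) and Ftl1 (0.23, adjusted p = 0.416) did not pass. Without Veh 10 no gene of these lists was called, and the same held without Veh 2, control 21, control 36 or control 38, while 4 cholesterol genes were lower without control 19.

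None of the 25 genes of endoplasmic reticulum stress and heat shock (0 higher and 1 lower at an unadjusted p under 0.05), 35 complex I genes (0 and 0) or 17 glucocorticoid-responsive genes (1 and 2) was called. Hspa5 was -0.08, adjusted p = 0.833 and Hsp90b1 -0.02, adjusted p = 0.921 on the log2 scale. Ndufa1 was -0.04, adjusted p = 0.919, Ndufa2 0.03, adjusted p = 0.951, Fkbp5 0.17, adjusted p = 0.407 and Sgk1 -0.20, adjusted p = 0.597.

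Of 46 Notch, BMP and Wnt genes 4 were higher and none lower, and 38 were positive (median 0.12). Id3, a target of BMP signaling that holds back differentiation, was 24.9, 22.6, 16.8 and 28.2 CPM in the Veh libraries and 10.4, 11.7, 10.3 and 13.1 CPM in the control libraries (log2 fold change 1.02, SE 0.155, adjusted p = 0.0373), and Id4, of the same family, was 43.1, 48.7, 38.02 and 46.5 CPM in the Veh libraries and 30.8, 30.1, 23.4 and 31.6 CPM in the control libraries (log2 fold change 0.60, SE 0.113, adjusted p = 0.0534). Each Veh library exceeded each control library in both. Sfrp1, a secreted Wnt inhibitor, was 8.37 to 15.4 CPM in Veh and 4.36 to 6.402 CPM in control (0.96, adjusted p = 0.0773). Bmp6, a BMP ligand, was 2.45, 8.75, 1.63 and 9.58 CPM in the Veh libraries and 1.701, 1.55, 0.931 and 1.46 CPM in the control libraries (1.99, adjusted p = 0.0937), high in Veh 6 and Veh 10 as Igf2 was, and overlapping between the groups. Without Veh 10 or control 38 2 genes were called, and without Veh 2, control 21 or control 36 none.

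Oligodendrocyte lineage and vessel genes held few calls. Of 23 mature oligodendrocyte genes 1 was higher, Apod, the lipid carrier apolipoprotein D, at 111, 142, 80.6 and 181 CPM in the Veh libraries and 84.3, 78.6, 81.9 and 67.5 CPM in the control libraries (0.72, adjusted p = 0.0963), and the median was 0.11. The myelin gene Mbp, at 1791, 3402, 1864 and 1356 CPM in the Veh libraries and 1751, 2084, 2372 and 1594 CPM in the control libraries (0.11, adjusted p = 0.857), was highest in Veh 6 and overlapped between the groups. None of the 20 precursor genes was called (4 higher and 0 lower at an unadjusted p under 0.05), with Pdgfra at 18.5 to 30.7 CPM in Veh and 21.9 to 26.1 CPM in control (0.01, adjusted p = 0.981) and Cspg4, which encodes NG2, at 15.5 to 20.6 CPM in Veh and 13.1 to 16.5 CPM in control (0.27, adjusted p = 0.318). Slc2a1 was the only endothelial gene of 22 called (median 0.21), with the tight junction gene Cldn5 at 50.7 to 59.5 CPM in Veh and 42.5 to 51.5 CPM in control (0.25, adjusted p = 0.192) and Pecam1 at 21.1 to 27.7 CPM in Veh and 14.6 to 19.5 CPM in control (0.40, adjusted p = 0.145). No pericyte gene of 14 was called (0 and 0), with Pdgfrb at -0.04, adjusted p = 0.923 and Rgs5 at 0.14, adjusted p = 0.496. Neither Apod nor Slc2a1 was called without Veh 2, Veh 6, Veh 10, control 21, control 36 or control 38. With the offset Apod, Slc2a1, Atf3, Bmp6, Efna1, Idi1, Prdx6, Sag and Sdc4 were not called, with adjusted p from 0.107 for Atf3 to 0.18 for Slc2a1.

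Markers of neighboring tissue were read as a check of the punches. None of the 15 striatum genes was called (0 and 0 at an unadjusted p under 0.05, median 0.02), with Drd1 at 2.63 to 10.6 CPM in Veh and 3.92 to 8.58 CPM in control (-0.04, adjusted p = 0.972) and Drd2 at 1.11 to 1.58 CPM in Veh and 0.753 to 1.27 CPM in control (0.26, adjusted p = 0.764). Of 14 genes of hippocampus, thalamus and claustrum Synpo2 was higher at 2.69 to 3.93 CPM in Veh and 0.945 to 1.35 CPM in control (1.45, adjusted p = 0.0534) and Neurod6, which upper cortical neurons also express, lower at 93.5 to 117 CPM in Veh and 119 to 138 CPM in control (-0.34, adjusted p = 0.0945, -0.32, adjusted p = 0.116 with the offset), with Prox1 at -0.04, adjusted p = 0.952 and Dsp at 0 to 1.65 CPM in Veh and 0 to 0.377 CPM in control. Besides Ttr, the choroid plexus gene Kl was 0.935, 86.1, 0.272 and 1.23 CPM in the Veh libraries and 0.03402, 0.628, 0.381 and 0.378 CPM in the control libraries, high in Veh 6 (6.01, adjusted p = 0.106), and the 4 tested genes of the list held no call (2 higher at an unadjusted p under 0.05). The globin genes Hba-a1 and Hba-a2 had no count in any library, and since their copies are nearly identical their reads may have been discarded in counting. None of 11 long noncoding RNAs (1 higher and 1 lower at an unadjusted p under 0.05) and none of 40 ribosomal protein genes (6 and 0, median 0.15) was called, with Malat1 at -0.11, adjusted p = 0.686, Neat1 at 71.3 to 186 CPM in Veh and 57.3 to 79.6 CPM in control (0.70, adjusted p = 0.175), Rpl3 at 0.27, adjusted p = 0.149 and Rpl4 at 0.21, adjusted p = 0.25.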

How the data were processed

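The deposited table held raw read counts per gene for 12 libraries, made by the authors from poly(A)-selected RNA with HISAT2 on mm10 and HTSeq at default settings, with versions and strand setting not given in the sources used here. Of these, 4 columns, from peptide-treated mice, were not used. Genes that overlap or share sequence may have lost or split reads.

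The 8 libraries were grouped by their labels, and the labels give no batch. Genes passing filterByExpr were normalized by TMM and tested with edgeR 4.0.16 (glmQLFit and glmQLFTest, R 4.3.3), with Benjamini-Hochberg adjustment over all 15126 tested genes and calls at an adjusted p under 0.1. The filter keeps genes with enough reads in as many libraries as 1 group holds. H2-Ab1, Cxcl10 and Atf3, among others, passed it through Veh and Prap1 through control, so that the filter set their direction. The study used that threshold in DESeq2 together with a log2 fold change over 0.5, a combination counted here as an alternative. SE is the standard error of the log2 fold change. CPM were computed here from counts and TMM-scaled library sizes, and log2 CPM used a prior count of 2. On simulated counts for 15126 genes in Veh against control, 47.8% of genes changed by 0.5, 83.6% by 1 and 98.5% by 2 (log2) were called, with 22 false calls. The 200 changed genes were drawn from those above 1 CPM. The simulation held no library set apart and no length trend, so that these shares may not hold for the real libraries.

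Gene lists were described by counts and medians and not tested. The comparison and the lists were chosen with earlier results of these data known. The genes named are the 12 with the smallest p in each direction, up to 4 called members of each list, the first 2 members of lists of cell types or with under 2 calls, and genes the study followed. Outside the rule and named with their values seen were Acan, Aif1, Aqp4, Arntl, B2m, Bcan, Bst2, C1qa, C1qb, Cacna1i, Cacnb4, Ccl4, Cd14, Cx3cl1, Egr1, Fos, Gria1, Grin1, Ifi27l2a, Ifit3, Isg15, Kcnq3, Lamp1, Lcn2, Myoc, Ncan, Oas1a, Per1, Per3, Scn8a, Serpina3n and Vcan. Some genes that the rule names are not reported here.

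Transcript length (longest transcript) and GC content came from GENCODE M21 for 24365 of 25238 genes by symbol and 323 by synonym, covering 99.03% of tested genes, and promoter windows from RefSeq. The offset was a loess fit with a span of 0.3. Alternatives were DESeq2 1.42.0 (size factors and Wald test), limma 3.58.1 (voom with quality weights), total counts, other filters, the offset, and each library left out. The offset without Veh 10 was added after seeing the data.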

Additional observations from a re-analysis of the deposited data

Results flagged for a closer look

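Within each group of 4 libraries, the gap of the highest or lowest library to its nearest neighbor, as a share of the group's range in log2 CPM, was compared with Dixon's critical value of 0.829. Of 414 groups of values, 31 exceeded it, where 20.7 are expected at 1 in 20. Veh 10 was the library set apart in 14 of the 31, and control 38 in none.

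Among the lists, Veh 10 stood above the other Veh libraries for the type I interferon response (0.829), interferon gamma GTPases (0.86), chemokines (0.84), monocytes and border macrophages (0.925) and fibroblasts and meninges (0.858). Control 21 stood above the other control libraries for voltage-gated channels (0.847).

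Among genes, Veh 10 was set apart upward for Ccl6 (0.852), Col1a2 (0.842), Ctss (0.831), Dcn (0.861), Gbp2 (0.864), Lyz2 (0.832), Oasl2 (0.897), Pecam1 (0.858) and Rgs5 (0.916). Veh 6 was high for Atf3 (0.963) and Chsy3 (0.88) and low for Dact2 (0.892) and Igfn1 (0.867). Veh 2 was low for Idi1 (0.861) and Plxna4 (0.883) and high for Rpl3 (0.912). Veh 8 was low for Mki67 (0.891) and Rab13 (0.996) and high for Sag (0.853). Of the control libraries, control 19 was high for Cxcl10 (1.0), where it held the only count, and for Stmn4 (0.848), and low for Plxna4 (0.902). Control 21 was high for Sox11 (0.861), and control 36 was low for Id4 (0.837) and Mrc1 (0.839). Whether these libraries differ in dissection, distance from the infarct or lesion was not tested.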

How the results depend on the processing

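Called genes numbered 156 higher and 181 lower. They numbered 102 and 78 with total counts, 486 and 623 with DESeq2's Wald test, 227 and 283 with no filter, 115 and 94 with the GC and length offset, 38 and 22 with the offset without Veh 10, 12 and 6 at an adjusted p under 0.05, and 106 and 56 with a log2 fold change beyond 0.5. With 1 library left out they ranged from 0 to 188 higher and from 0 to 294 lower. DESeq2's size factors, a filter of at least 10 counts and limma-voom moved neither count by over 1.5 times. No paired analysis was possible because the labels give the groups no shared replicate numbers. Why the counts moved was not tested, beyond the smaller number of libraries in the fits with 1 left out.

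Of the genes named by the rule, 25 changed sign under some setting, none of them called. With 1 library left out, the log2 fold change ranged for Bcl2l1 (-0.076 to 0.048), Chsy1 (-0.24 to 0.098), Drd1 (-0.47 to 0.19), Fezf2 (-0.13 to 0.088), Gad1 (-0.031 to 0.061), Hsp90b1 (-0.079 to 0.024), Hspa5 (-0.16 to 0.10), Mbp (-0.22 to 0.27), Ndufa1 (-0.19 to 0.045), Ndufa2 (-0.087 to 0.16), Pdgfra (-0.12 to 0.12), Pdgfrb (-0.15 to 0.097), Prox1 (-0.16 to 0.12), Rbfox3 (-0.009 to 0.076), Sema4d (-0.08 to 0.12), Slc1a2 (-0.023 to 0.14), Sox11 (-0.07 to 0.17), Syn1 (-0.036 to 0.039), Syp (-0.098 to 0.078) and Tlr1 (-0.12 to 1.37). With DESeq2's Wald test it was -0.003 for Sox11, -0.001 for Syn1, -0.004 for Syp. With DESeq2 size factors it was -0.003 for Sox11, -0.0 after rounding for Syn1, -0.003 for Syp. With the GC and length offset it was 0.021 for Hsp90b1, 0.063 for Malat1, -0.032 for Ndufa2, 0.14 for Prox1, -0.05 for Rbfox3, 0.069 for Snap25, -0.081 for Syn1, -0.004 for Syp. With the offset without Veh 10 it was 0.02 for Bcl11b, 0.011 for Dcx, 0.12 for Drd1, 0.029 for Hsp90b1, 0.074 for Malat1, 0.011 for Ndufa1, 0.20 for Prox1, -0.068 for Rbfox3, 0.13 for Snap25, -0.064 for Syn1, -0.095 for Tlr1. With limma-voom it was 0.056 for Drd1, 0.017 for Hsp90b1, -0.85 for Mki67, -0.05 for Pdgfra, 0.06 for Prox1, -0.011 for Syn1, -0.011 for Syp. With no filter it was -0.001 for Syp. The cause was not tested. Low counts limit Cxcl10, H2-Ab1, Atf3 and Myoc.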

Other observations

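Further called genes lay outside the lists and were chosen after their values were seen. Htr2a, the serotonin 2A receptor of cortical neurons, was 4.26, 9.31, 8.96 and 9.34 CPM in the Veh libraries and 15.04, 18.4, 18.8 and 12.1 CPM in the control libraries (log2 fold change -1.004, SE 0.224, adjusted p = 0.0764), or -0.87, adjusted p = 0.077 with the length and GC offset. Kcnma1, the large-conductance calcium-activated potassium channel, was 45.8, 58.5, 52.8 and 53.5 CPM in the Veh libraries and 76.6, 104, 74.9 and 72.8 CPM in the control libraries (log2 fold change -0.64, SE 0.117, adjusted p = 0.0534), or -0.38, adjusted p = 0.0653 with the offset. In both genes every Veh library lay below every control library, and Veh 2 was the lowest.

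Ptgds, the prostaglandin D synthase of meninges and oligodendrocytes, was 416, 329, 244 and 718 CPM in the Veh libraries and 226, 151, 169 and 160.3 CPM in the control libraries (log2 fold change 1.27, SE 0.257, adjusted p = 0.0717, 0.90 without Veh 10). Aebp1, a protein of the collagen matrix, was 8.998, 12.2, 7.51 and 38.5 CPM in the Veh libraries and 4.32, 2.804, 3.3 and 3.68 CPM in the control libraries (log2 fold change 2.25, SE 0.445, adjusted p = 0.0678, 1.44 without Veh 10). Gpr84, a fatty acid receptor that activated microglia express, was 2.28, 2.65, 1.901 and 3.46 CPM in the Veh libraries and 1.29, 0.377, 0.888 and 0.236 CPM in the control libraries (log2 fold change 1.84, SE 0.46, adjusted p = 0.0933, 1.67 without Veh 10). Capg, an actin-capping protein of macrophages, was 2.16, 3.29, 2.49 and 4.55 CPM in the Veh libraries and 1.53, 1.004, 1.35 and 0.992 CPM in the control libraries (log2 fold change 1.35, SE 0.318, adjusted p = 0.0849, 1.11 without Veh 10). The groups did not overlap in these 4 genes, and Veh 10 was the highest library in each. With the offset Gpr84 (1.77, adjusted p = 0.11) and Capg (1.27, adjusted p = 0.115) were not called. Prap1 had the largest drop of all called genes but rested on low levels, 0, 0.241, 0.181 and 0.0948 CPM in the Veh libraries and 0.646, 8.12, 2.92 and 0.614 CPM in the control libraries (log2 fold change -4.42, SE 0.932, adjusted p = 0.0732). Prap1 passed the filter through its control reads, so that its direction was set by the filter.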
